A study of Mus musculus with 16 samples.

Results

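The 36 genes described here encode the cytokine TNF, its receptors and signalling adaptors, the transcription factor NF-kB with its inhibitors, and inflammatory genes that lie downstream of them. They were chosen by name, and all 36 were found among the 24940 genes of the ileum count table. The list was drawn up with earlier results of these libraries known, so it is not independent evidence of its own direction. Poly(A) RNA was sequenced from a segment of terminal ileum next to the cecum of 16 C57BL/6 mice. Bcl6 is a transcriptional repressor, and both genotypes carried the floxed alleles on both copies (Bcl6 fl/fl). Control mice, called WT, were labelled with these alleles alone, and Bcl6LKO mice, called LKO, also carried Alb-cre, in which the albumin promoter drives Cre recombinase in hepatocytes, so that the ileum was not the tissue targeted. Each of the 4 groups, 1 per sex and genotype, held 4 animals, and their ages are not given in the sources used here. The mice of the study were fed ad libitum or fasted briefly, and which applied to these animals is not given. The comparisons ask how the ileum of either sex differed when hepatocytes lacked Bcl6.

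When TNF binds its receptor TNFR1, adaptor proteins and ubiquitin ligases assemble on the receptor and activate the IKK kinase complex. IKK marks the inhibitor IkBa for destruction, and NF-kB dimers then enter the nucleus and raise transcription of chemokines, adhesion molecules and their own inhibitors, which closes the loop. When this route is blocked, the same receptor can start cell death through caspase-8 or through the kinases RIPK1 and RIPK3. In the intestine this balance bears on epithelial survival, and a second, noncanonical branch that runs from the lymphotoxin beta receptor to NF-kB2 and RelB builds lymphoid tissue.

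The total count of a library was between 15739601 and 20467119 in 15 cases and 60324336 in female LKO replicate 1, so that 3 counts were worth between 0.0497 and 0.191 CPM (counts scaled to equal library totals). All 6 ileal enterocyte markers examined, among them Fabp6 and Slc10a2, were detected in each group, and summed to between 8168 and 11948 CPM in a library. The 11 B-cell markers, which mark lymphoid follicles in such tissue, summed to 21.9 to 36.4 CPM in 12 libraries. They reached 87.3 CPM in female WT replicate 3, 145 CPM in male WT replicate 2, 250.2 CPM in female LKO replicate 2 and 473 CPM in female LKO replicate 3. These 4 libraries stood apart, and the members whose values moved most without them are named with the B-cell levels. Without them the female LKO group held replicates 1 and 4 alone. The female WT group then lacked replicate 3, and the male WT group lacked replicate 2, so female values without them rest on few animals. Bcl6 itself, not targeted in this tissue, had 13.9 to 17.9 CPM in male WT, 16.3 to 21.7 in male LKO, 9.66 to 15.3 in female WT and 15.4 to 26.8 CPM in female LKO, so it does not check the genotype labels. The male-specific Ddx3y was at 0 in all 8 female libraries and at 23.5 CPM or more in all 8 male libraries. In bulk tissue, fewer cells of a type and less RNA per cell cannot be told apart.

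No member passed the genome-wide threshold (edgeR, adjusted p below 0.05) in any of the 6 comparisons. The members' fold changes between genotypes were small and lay mostly on one side, with higher values in LKO. In males, 31 of the 34 members with enough counts to be tested had a higher fitted level in LKO, with a median log2 fold change of 0.10 against -0.0020 over all 15169 genes, of which 49.2% were higher. In females, 28 of 34 were higher in LKO, with a median of 0.15 against 0.0070 over all 15298 genes, of which 51.8% were higher. Over both sexes together, 28 of 34 were higher, with a median of 0.11 against 0.00065 over 15598 genes, of which 50.2% were higher. The share of all genes called was 0.0527% in males, 0.0392% in females and 0.269% over both sexes.

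At an unadjusted p below 0.05, 8 members were higher in LKO males, against 3.01% of all genes, 9 were higher in LKO females, against 4.95%, and 14 were higher over both sexes, against 4.67%. No member was lower in LKO at that level in any of these 3 comparisons with all libraries. Every LKO library lay above every WT library for 3 members in males (Mmp3, Casp8 and Ripk1), against 1.63% of all genes, and for 5 members in females (Nfkbia, Ripk3, Tnfrsf1a, Icam1 and Cxcl1), against 2.63%. Without the 4 libraries rich in B-cell markers, 33 of 34 members were fitted higher in LKO males, 28 in LKO females and 29 over both sexes, with 7, 8 and 11 at an unadjusted p below 0.05, all higher in LKO but Mmp9 in females. The comparison over both sexes holds the animals of the other 2 comparisons. DESeq2, run as the alternative, called 0 members in males, where it called 0.385% of all genes. It called 3 members in females (Nfkbia, adjusted p = 0.0102, Tnfrsf1a, 0.0263, and Ripk3, 0.0328), where it called 1.02% of all genes. Over both sexes it called 6 (Mmp3, Ripk3, Casp8, Tnfrsf1a, Bcl3 and Nfkbia), with adjusted p between 0.0148 and 0.0481, against 1.45% of all genes.

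**Figure D1:**
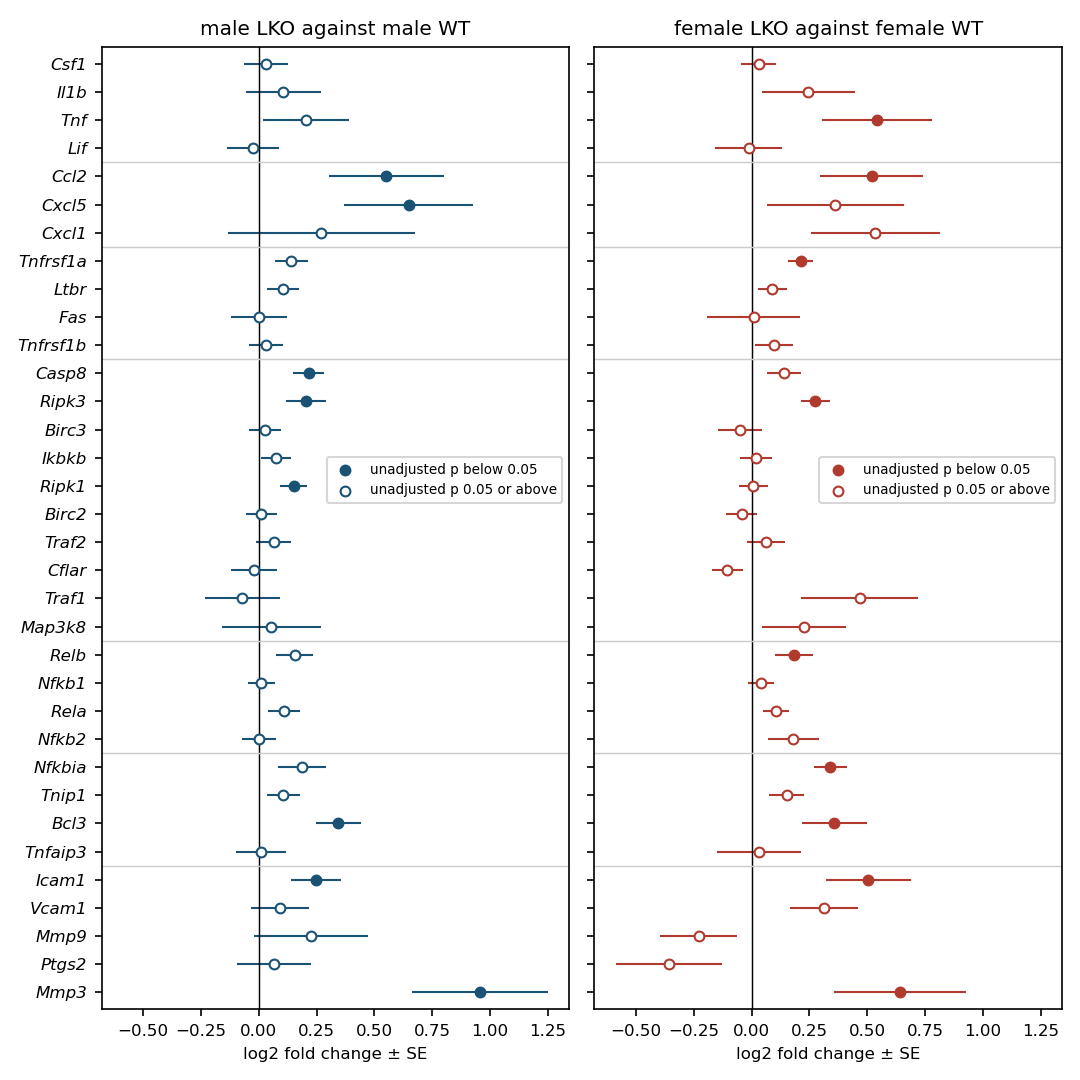
Log2 fold change of LKO over WT in males (left) and females (right) for the 34 members tested, with bars of 1 standard error (SE), ordered by role. Filled points have an unadjusted edgeR p below 0.05; all filled points lie right of 0, and none passed the adjusted threshold.

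Levels differed widely between members. Per length of transcript (RPKM, the CPM divided by the length in kilobases), the receptor Tnfrsf1a stood at 87.5 ± 7.40 (SD over 16 animals), followed by Casp8 at 83.4 ± 10.1, Nfkbia at 70.3 ± 9.57 and the lymphotoxin beta receptor Ltbr at 65.4 ± 4.45 RPKM. The ranges of the first 3 overlapped, since Tnfrsf1a spanned 76.4 to 101 RPKM, Casp8 66.7 to 104 and Nfkbia 56.8 to 86.0. Tnip1 (47.5 RPKM), Relb (43.4 RPKM), Ripk3 (40.8 RPKM) and Bcl3 (39.9 RPKM) came next, also with overlapping ranges. Most cytokines and all chemokines were near the bottom of the order. Tnf itself had 2.25 ± 0.559 RPKM, Cxcl5 0.987 ± 0.316, Cxcl1 0.731 ± 0.248 and Cxcl2 0.335 ± 0.189. Il6, a cytokine of the acute response, gave at most 3 counts in a library and 0 in 8 of the 16, so no difference in Il6 was detectable at this depth. Cxcl2 gave 1 to 19 counts and Il6 0 to 3, and both were below the filter on low counts. Counting error therefore weighs most on the chemokines, since Cxcl1 rested on 7 to 49 counts a library and Tnfrsf1a on 2741 to 11822.

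**Figure D2:**
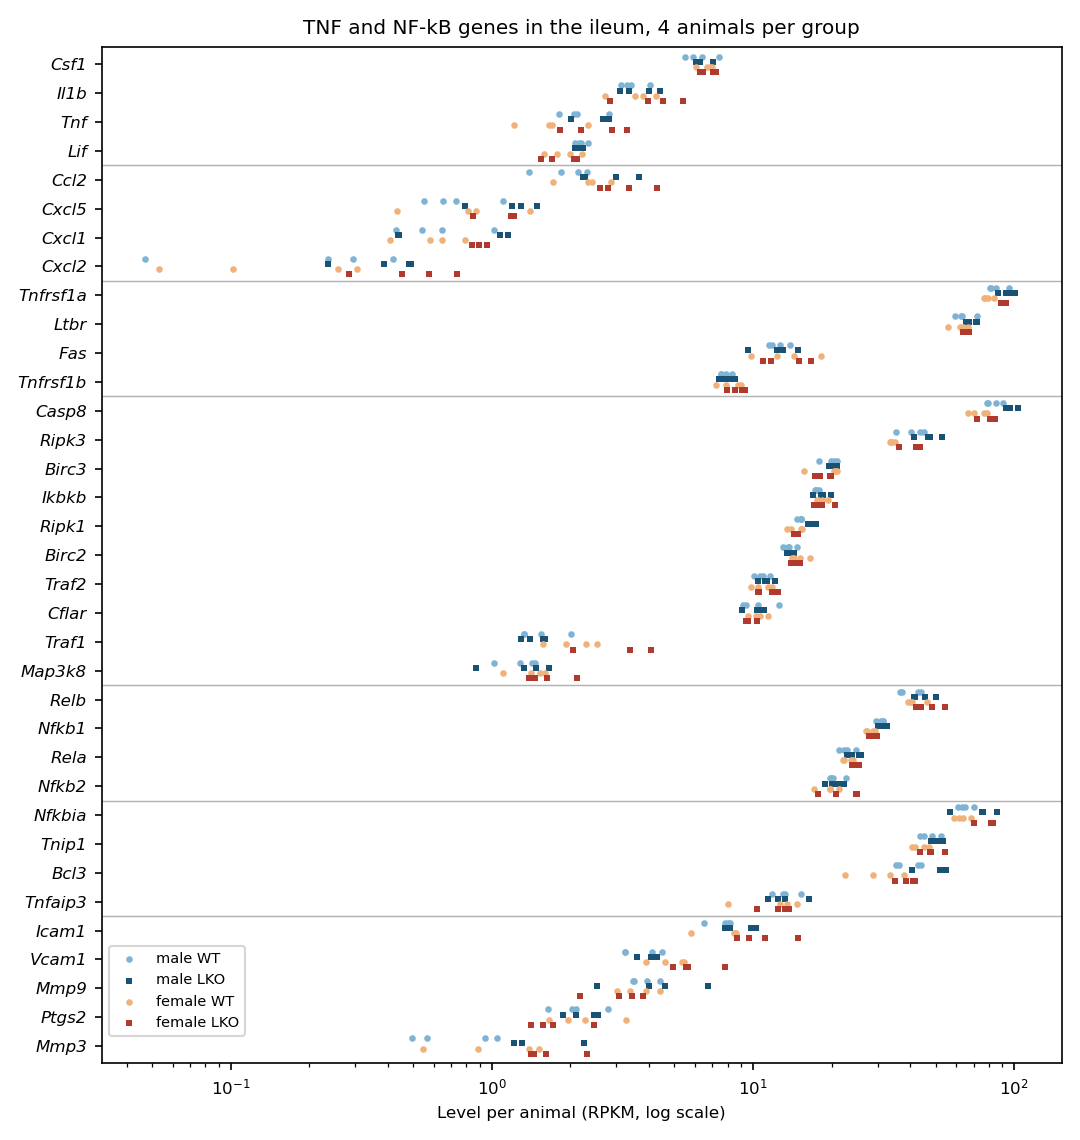
Level of 35 members in each of the 16 animals (RPKM, log scale), grouped by role and coloured by group, with Il6 left out because it was at 0 in 8 libraries. Tnfrsf1a, Casp8, Nfkbia and Ltbr lie at 55.7 RPKM or above in every animal, and Cxcl1 and Cxcl2 at 1.16 RPKM or below.

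Among the cytokines, Tnf (chr17:35199367-35202007, minus strand in mm10) was sparse in all groups. It had 3.39, 3.49, 2.99 and 4.62 CPM in the male WT animals (replicates 1 to 4, the order used throughout) and 4.61, 4.40, 4.40 and 3.32 CPM in the male LKO animals. In females it had 2.01, 2.72, 3.84 and 2.80 CPM in WT and 3.01, 5.43, 4.77 and 3.60 CPM in LKO. The groups overlapped in both sexes, since all 4 male LKO animals and 2 of the female LKO animals lay within the range of their controls. The log2 fold change of Tnf was 0.21 ± 0.19 (SE) in males and 0.54 ± 0.24 in females, with edgeR adjusted p of 0.9995 and 0.400, and 0.37 ± 0.15 over both sexes (adjusted p = 0.353). The female value of Tnf was 0.38 ± 0.23 without the 4 libraries rich in B-cell markers. Il1b, an inflammasome product, ranged from 3.63 to 7.26 CPM over all animals, Csf1, the macrophage growth factor, from 22.9 to 30.9 CPM, and Lif, a cytokine of the IL-6 family, from 6.17 to 9.39 CPM, and none of these 3 reached an unadjusted p below 0.05 between the genotypes with all libraries. Without those 4 libraries the female log2 fold change of Il1b went from 0.25 ± 0.20 to 0.50 ± 0.20 (edgeR adjusted p = 0.696), past that unadjusted level.

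The chemokines Cxcl1, Cxcl2 and Cxcl5 attract neutrophils and lie together on chromosome 5, where 10.8 kb separates Cxcl1 from Cxcl2 and 129.6 kb separates Cxcl5 from Cxcl1. Cxcl1 had 0.747, 0.611, 0.548 and 0.385 CPM in female WT and 0.792, 0.793, 0.842 and 0.901 CPM in female LKO animals. All 4 female LKO animals thus lay above all 4 controls, by a narrow margin. In males it had 0.405, 0.508, 0.958 and 0.609 CPM in WT and 1.01, 0.416, 0.411 and 1.09 CPM in LKO, where 2 LKO animals lay above all controls and 2 near the lowest of them. Cxcl2, too low for the test, showed 0.0575, 0.278, 0.329 and 0.110 CPM in female WT and 0.307, 0.488, 0.617 and 0.795 CPM in female LKO, with an overlap of 1 animal on either side. Cxcl5 had 0.912, 1.21, 1.07 and 1.83 CPM in male WT and 1.98, 1.31, 2.47 and 2.13 CPM in male LKO, again with an overlap. Ccl2, which attracts monocytes, ranged from 1.11 to 1.86 CPM in male WT, from 1.78 to 2.94 in male LKO, from 1.37 to 2.30 in female WT and from 2.07 to 3.44 CPM in female LKO. The 3 tested chemokines were all fitted higher in LKO, with a median log2 fold change of 0.55 in males and 0.52 in females, and none passed the adjusted threshold. The 6 neutrophil markers summed to between 6.16 and 10.9 CPM in female WT and between 9.52 and 14.4 CPM in female LKO, with 0 of the 6 at 0 throughout a group. On the mean log2 scale they were higher in all 4 female LKO animals than in all 4 female WT animals, by 0.53. The two-sided exact permutation p was 0.0286, the smallest possible with 4 against 4, and 0.279 after adjustment over 44 marker tests. This mean was 0.129 and 0.434 in female LKO replicates 2 and 3, which were rich in B-cell markers. In replicates 1 and 4 it was -0.233 and -0.269, against -0.358 in the highest female WT animal. The part of the neutrophil markers in the chemokine values was not tested.

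Of the receptors, Tnfrsf1a (chr6:125349723-125362483, plus strand), which encodes TNFR1 and lies 35.8 kb from Ltbr on chromosome 6, separated the female genotypes. It had 165, 179, 170.2 and 164 CPM in female WT and 191, 199, 191 and 199.995 CPM in female LKO. Every female LKO animal lay above every female control, and the spread within either group was small. The log2 fold change was 0.21 ± 0.05 in females (95% interval 0.093 to 0.33, edgeR adjusted p = 0.229). In males Tnfrsf1a had 182, 174, 204 and 175 CPM in WT and 185, 199.8, 207 and 216 CPM in LKO, where the groups overlapped. Over both sexes the log2 fold change was 0.17 ± 0.04, with an adjusted p of 0.0959. The log2 fold changes of the other receptors, Tnfrsf1b (TNFR2, mostly of immune cells), Ltbr and the death receptor Fas, lay between 0.00092 and 0.10 in males and between 0.0088 and 0.10 in females.

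Among adaptors, kinases and cell-death genes, the necroptosis kinase Ripk3 and the initiator caspase Casp8 had the smallest p in females and in males, respectively. Ripk3 (chr14:55784995-55788857, minus strand) had 66.0, 68.1, 65.2 and 66.6 CPM in female WT and 82.1, 82.3, 71.0 and 85.1 CPM in female LKO. All 4 female LKO animals were higher than all controls, which had an SD of 1.23 CPM. In males Ripk3 had 78.9, 68.7, 87.8 and 85.1 CPM in WT and 92.8, 81.1, 103 and 91.2 CPM in LKO, where 1 LKO animal lay inside the range of the controls. The log2 fold change of Ripk3 was 0.28 ± 0.06 in females (edgeR adjusted p = 0.195), 0.20 ± 0.09 in males (0.893) and 0.24 ± 0.06 over both sexes (0.0724), the last being the smallest adjusted p of any member in the 3 genotype comparisons. Without male WT replicate 3 the both-sexes adjusted p of Ripk3 was 0.0468, and without male WT replicate 4 it was 0.0423.

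Casp8 (chr1:58795374-58847503, plus strand) lies 36.5 kb from Cflar, which encodes its inhibitor cFLIP, on chromosome 1. It had 233, 204, 202 and 220.0 CPM in male WT and 241, 239, 267 and 248 CPM in male LKO, with no overlap. In females it had 181, 172, 198 and 203 CPM in WT and 216, 218, 185 and 207 CPM in LKO, with 1 LKO animal inside the control range. In males the log2 fold change was 0.22 ± 0.07 (edgeR adjusted p = 0.611), and over both sexes it was 0.17 ± 0.05 (adjusted p = 0.133). Ripk1 (chr13:34002363-34035170, plus strand), the kinase that scaffolds TNFR1 signalling, had 72.4, 72.7, 70.1 and 72.7 CPM in male WT and 82.9, 78.1, 80.5 and 77.3 CPM in male LKO. The male groups did not overlap, and the log2 fold change was 0.15 ± 0.06 (adjusted p = 0.856). In females it was 72.9, 66.4, 72.8 and 63.9 CPM in WT and 70.5, 69.1, 68.1 and 68.4 CPM in LKO, and the LKO animals lay inside the range of the controls. The difference between these 2 genotype effects was 0.14 ± 0.08 on the log2 scale (edgeR adjusted p = 0.845). It had the smallest p of any member for the interaction of genotype and sex, and it did not pass the threshold. Of this class, Traf1 is described with the sexes, and the remaining members were Cflar, the ubiquitin ligases Birc2 and Birc3, 11.9 kb apart on chromosome 9, the adaptor Traf2, the IKK subunit Ikbkb and the kinase Map3k8. Their log2 fold changes lay between -0.02 and 0.07 in males and between -0.11 and 0.23 in females, and none had an unadjusted p below 0.05 in a genotype comparison.

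All 4 NF-kB subunits tested were fitted higher in LKO in both sexes, by little. They are Rela and Nfkb1 of the canonical branch, and Relb and Nfkb2 of the noncanonical one. Their log2 fold changes lay between 0.0017 and 0.15 in males and between 0.04 and 0.18 in females. Relb and Rela had an unadjusted p below 0.05 over both sexes, which neither had without the 4 libraries rich in B-cell markers, and no subunit had an adjusted p below 0.284. The female log2 fold change of Relb was 0.02 ± 0.08 without those libraries. Nfkb1 was also the steadiest of the 34 members between animals of a group, with an SD of 0.05 on the log2 scale. Its levels were 111 to 133 CPM over all 16 animals.

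The inhibitors and cofactors of NF-kB are themselves targets of it, and they held the female difference with the smallest p. Nfkbia (chr12:55489409-55492647, minus strand), which encodes IkBa, had 96.8, 108, 100.4 and 92.3 CPM in female WT and 128, 131, 110.2 and 131 CPM in female LKO. Each female LKO animal lay above each control, with replicate 3 the nearest to them. The log2 fold change was 0.34 ± 0.07 in females (95% interval 0.18 to 0.49, edgeR adjusted p = 0.162). In males Nfkbia had 99.3, 102, 110.1 and 95.4 CPM in WT and 135, 118, 119.9 and 89.2 CPM in LKO, where 3 LKO animals lay above all controls and replicate 4 below them. The male log2 fold change was 0.19 ± 0.10 (adjusted p = 0.9995), and over both sexes it was 0.26 ± 0.07 (0.114). Leaving out that 1 male LKO animal brought the both-sexes adjusted p of Nfkbia to 0.0118.

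Bcl3 (chr7:19808462-19822755, minus strand), an atypical IkB protein that acts as a nuclear cofactor, lies 179.0 kb from Relb on chromosome 7. It had 64.6, 65.9, 78.4 and 80.5 CPM in male WT and 98.1, 74.4, 99.6 and 94.8 CPM in male LKO, and 52.6, 69.1, 60.9 and 41.2 CPM in female WT and 76.4, 75.1, 63.6 and 70.3 CPM in female LKO. In each sex 3 of the 4 LKO animals lay above all controls. In males the log2 fold change was 0.34 ± 0.10 (edgeR adjusted p = 0.493, the smallest of any member there), in females it was 0.36 ± 0.14 (0.375) and over both sexes 0.35 ± 0.09 (0.118). Tnip1, a partner of A20, ranged from 121 to 161 CPM over all animals, with overlapping groups. Tnfaip3 (chr10:19000910-19015410, minus strand), which encodes the ubiquitin-editing inhibitor A20, did not share this pattern. It had 52.1, 58.6, 57.7 and 67.2 CPM in male WT against 72.5, 55.1, 58.5 and 50.4 CPM in male LKO, and 59.7, 56.0, 65.2 and 35.5 CPM in female WT against 58.6, 55.0, 45.8 and 60.4 CPM in female LKO. Its log2 fold change was 0.0086 ± 0.11 in males (adjusted p = 0.9995) and 0.03 ± 0.18 in females (0.961), and its sign changed with single animals and with upper-quartile scaling. The 95% interval of Tnfaip3 in females ran from -0.39 to 0.45, so a difference of the size seen for Nfkbia was inside it.

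**Figure D3:**
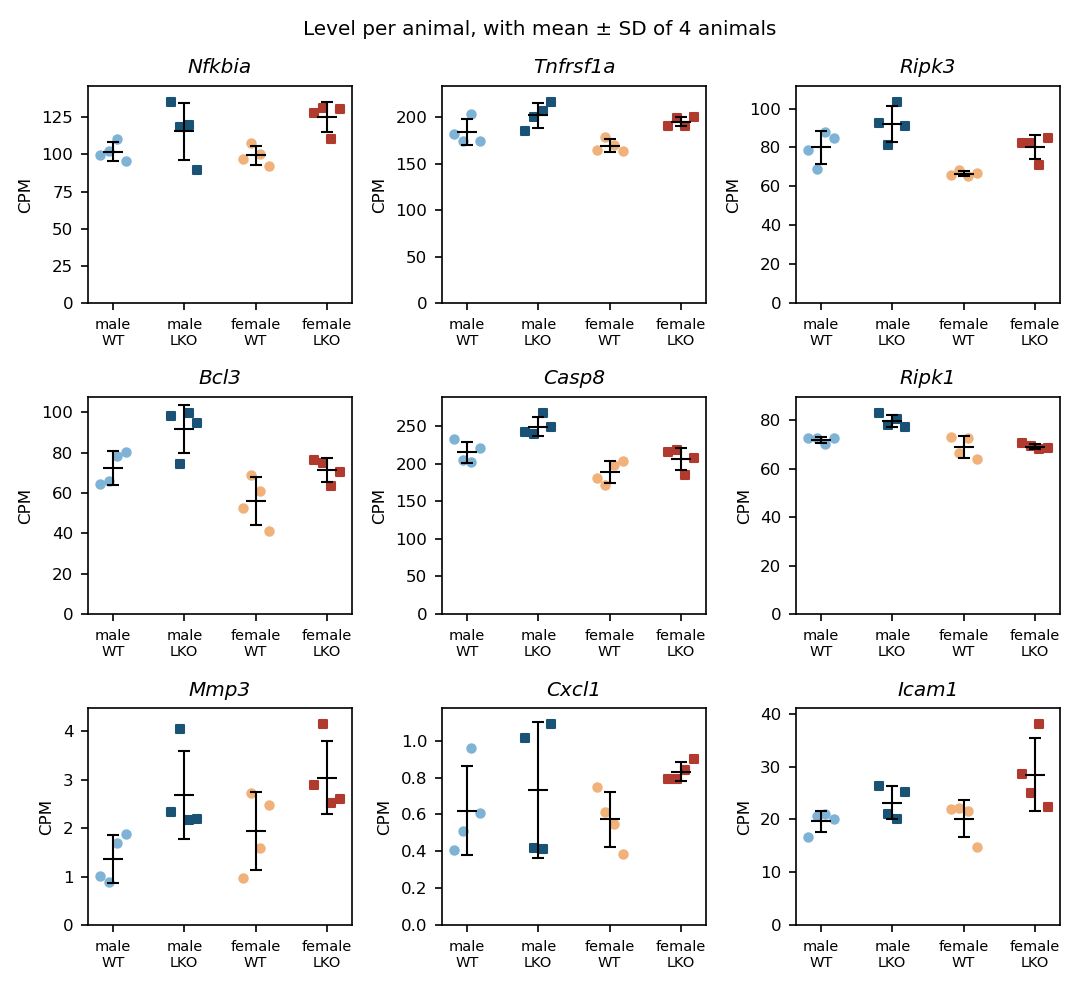
CPM of 9 members in each animal (points), with the mean and SD of the 4 animals of a group (bars) and axes that start at 0. Female LKO animals lie above all female controls for Nfkbia, Tnfrsf1a, Ripk3, Cxcl1 and Icam1, and male LKO animals above all male controls for Casp8, Ripk1 and Mmp3.

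The promoter windows of these genes were read because NF-kB binds a short sequence, the kB consensus decamer: GGG, a purine, 2 arbitrary bases, 2 pyrimidines and CC, searched on both strands. RefSeq windows (GRCm38.p6) matched 28 of the 36 members. Within the 250 bases before a start site, 9 of the 28 (32.1%) held at least 1 match in any of their windows, against 1646 of 18104 genes of the table (9.09%). The 9 were Csf1, Cxcl1, Cxcl2, Il6, Lif, Nfkb2, Nfkbia, Tnfaip3 and Tnip1. The windows printed here, 5′ to 3′ along the gene with matches in capitals, are those of Nfkbia (chr12:55492648-55492897, minus strand), of the chemokine Cxcl1 (chr5:90890995-90891244, plus strand) and of Tnfaip3 (chr10:19015411-19015660, minus strand), which set 2 members whose female groups did not overlap beside 1 whose groups overlapped in both sexes.
Nfkbia: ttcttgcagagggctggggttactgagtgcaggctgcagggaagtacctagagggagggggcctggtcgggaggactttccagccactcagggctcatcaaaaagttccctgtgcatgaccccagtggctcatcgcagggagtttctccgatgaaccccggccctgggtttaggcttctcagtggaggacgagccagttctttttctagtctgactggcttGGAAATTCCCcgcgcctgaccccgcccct
Cxcl1: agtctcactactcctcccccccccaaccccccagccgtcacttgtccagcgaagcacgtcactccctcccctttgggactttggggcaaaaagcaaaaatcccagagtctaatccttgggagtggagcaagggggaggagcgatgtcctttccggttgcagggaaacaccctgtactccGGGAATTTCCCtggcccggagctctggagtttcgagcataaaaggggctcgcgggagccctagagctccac
Tnfaip3: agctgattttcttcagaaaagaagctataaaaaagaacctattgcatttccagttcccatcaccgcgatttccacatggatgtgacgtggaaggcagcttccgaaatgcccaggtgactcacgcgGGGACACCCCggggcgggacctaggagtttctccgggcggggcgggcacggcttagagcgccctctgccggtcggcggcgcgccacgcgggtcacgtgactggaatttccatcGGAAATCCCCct
The match of Nfkbia begins 29 bases before the start site, the 2 overlapping matches of Cxcl1 begin 71 and 70 bases before it, and those of Tnfaip3 begin 125 and 12 bases before it. Of the other members with separated groups, Ripk3, Tnfrsf1a, Icam1, Casp8, Ripk1 and Mmp3 had no match in their windows. The only Casp8 window belongs to a start site 7128 bases downstream of the start of the counted transcript, whose own promoter was not read. For Icam1 and Tnip1 the bases after the start site of the window were not found in a transcript of the gene. A match is a run of letters and does not show binding, and a missing one says only that these letters are not in the window.

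The adhesion molecules and enzymes included the member with the largest fold change. Icam1 (chr9:21015940-21028814, plus strand), an adhesion molecule for leukocytes, had 21.9, 22.2, 21.6 and 14.8 CPM in female WT and 28.6, 24.9, 38.0 and 22.3 CPM in female LKO. The groups did not overlap, although the lowest LKO animal and the highest control differed by less than 1 CPM. In females the log2 fold change was 0.50 ± 0.18 (edgeR adjusted p = 0.355). In males Icam1 ranged from 16.7 to 21.0 CPM in WT and from 20.1 to 26.3 CPM in LKO. Mmp3 (chr9:7445822-7455974, plus strand), a matrix metalloproteinase of stromal cells also called stromelysin, had 1.01, 0.888, 1.69 and 1.88 CPM in male WT and 2.33, 4.04, 2.17 and 2.18 CPM in male LKO. The male groups did not overlap, and 1 LKO animal stood far above the other 3. In females it had 0.977, 2.72, 1.59 and 2.47 CPM in WT and 2.89, 4.15, 2.52 and 2.60 CPM in LKO, with an overlap. Its log2 fold changes were the largest of any tested member in either sex, at 0.96 ± 0.29 in males (adjusted p = 0.568), 0.64 ± 0.29 in females (0.408) and 0.79 ± 0.22 over both sexes (0.126). The mean log2 level of 7 fibroblast markers was 0.17 higher in male LKO than in male WT (two-sided exact permutation p = 0.229, adjusted p = 0.559). Between female LKO and female WT the difference was -0.017 (exact permutation p = 0.771, adjusted p = 0.88). The part of these markers in the Mmp3 values was not tested. Ptgs2, the inducible cyclooxygenase COX-2, and the gelatinase Mmp9 overlapped between genotypes in both sexes, and ranged from 6.30 to 14.5 and from 6.89 to 21.2 CPM over all animals. Both were fitted higher in LKO in males and lower in LKO in females, and their difference between the sexes did not pass the test of the interaction (adjusted p = 0.864 for each).

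The effect of genotype did not differ detectably between the sexes. No member had an unadjusted p below 0.05 for the interaction, where 5.64% of all genes did, 0% of all genes passed the adjusted threshold with edgeR, and DESeq2 called 0 members and 0% of genes. The comparisons of males with females within a genotype share these animals with the genotype comparisons. In them the members showed no common direction, with 16 higher and 18 lower in males in WT and the same split in LKO. No member passed the threshold in either, where 0.25% of genes passed in WT and 0.0984% in LKO. At an unadjusted p below 0.05 stood 6 members in each, against 13.9% of all genes in WT and 22.6% in LKO, and the groups were apart for 2 members in WT, against 8.16%, and for 5 in LKO, against 12.9%. The members' counts correspond to 17.6% of the 34 at the unadjusted level in each comparison, between those shares of all genes. DESeq2 called 0 members in WT (2.45% of genes) and 5 in LKO, namely Traf1, Vcam1, Casp8, Ripk1 and Bcl3, with adjusted p between 0.00288 and 0.0168 (7.5% of genes).

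The 2 members apart in WT were Ripk3 and Nfkb1, both with all male animals above all female animals. Ripk3 differed there by 0.27 ± 0.07 on the log2 scale (edgeR adjusted p = 0.160), and by 0.20 ± 0.08 in LKO, with overlap (0.174). Bcl3 was fitted higher in males by 0.37 ± 0.15 in WT (adjusted p = 0.316) and by 0.36 ± 0.09 in LKO (0.0783). Casp8 was likewise fitted higher in males, by 0.19 ± 0.07 in WT (0.279) and by 0.27 ± 0.07 in LKO (0.0778), where the 4 male LKO animals lay above all female LKO animals. Ripk1, too, was higher in each male LKO animal than in each female one, by 0.20 ± 0.05 (0.0834), and Nfkb1 was the third such member. As folds, the differences of Ripk3, Bcl3, Casp8 and Ripk1 given here lay between 1.14 and 1.29, and those of Nfkb1 were 1.09 in WT and 1.07 in LKO. Between male and female LKO animals, Tnf, Nfkbia and Tnfaip3 had log2 differences of 0.02 ± 0.20 (adjusted p = 0.971), -0.12 ± 0.11 (0.566) and 0.10 ± 0.12 (0.637). Without the 4 libraries rich in B-cell markers the difference of Tnf between LKO sexes was 0.36 ± 0.21 (0.475). In WT the differences were 0.35 ± 0.21 (0.490), 0.03 ± 0.07 (0.861) and 0.12 ± 0.18 (0.809).

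Traf1 and Vcam1 had lower values in males. Traf1 (chr2:34941750-34961772, minus strand), an adaptor that lymphocytes raise on activation, had 5.07, 7.68, 5.92 and 5.08 CPM in male WT, 5.37, 6.12, 4.93 and 6.02 in male LKO, 8.73, 7.33, 9.65 and 5.99 in female WT and 7.79, 12.9, 15.6 and 7.84 CPM in female LKO. Female LKO replicates 2 and 3 were the highest of all, and every male LKO animal lay below every female LKO animal. The log2 difference between male and female LKO animals was -0.96 ± 0.23 (edgeR adjusted p = 0.0778), and in WT it was -0.42 ± 0.18 (0.303). Vcam1 (chr3:116110020-116129688, minus strand), an endothelial and stromal adhesion molecule for lymphocytes, had 14.5, 12.2, 13.8 and 13.8 CPM in male LKO and 19.0, 16.7, 26.4 and 18.8 CPM in female LKO. Here again no male LKO animal reached a female one, with a log2 difference of -0.58 ± 0.13 (adjusted p = 0.0708), while in WT it was -0.36 ± 0.14 (0.264).

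Every marker list but that of ileal enterocytes had a lower mean in male than in female LKO animals, none with an adjusted p below 0.05. The 4 lymphoid stroma markers differed by -0.95 on the mean log2 scale, with overlap (two-sided exact permutation p = 0.2, adjusted p = 0.559). Their sums were highest in female LKO replicates 2 and 3, at 70.7 and 109 CPM. The neutrophil, adipocyte, T-cell and smooth muscle lists had the smallest p. The 6 neutrophil markers summed to between 7.99 and 9.81 CPM in male LKO and between 9.52 and 14.4 in female LKO, and the 4 adipocyte markers to between 44.5 and 61.5 CPM and between 65.5 and 129 CPM. On the mean log2 scale neither list overlapped, with differences of -0.60 and -1.09 (two-sided exact permutation p = 0.0286 and adjusted p = 0.279 for each). On that scale both lists were highest in female LKO replicates 2 and 3, which were rich in B-cell markers. T-cell markers differed by -0.46 and smooth muscle markers by -0.43 (exact permutation p = 0.0571, adjusted p = 0.279 for each), with sums of 72.1 to 84.6 against 87.3 to 151 CPM and of 2396 to 3045 against 3150 to 4478 CPM. In none of these lists was a marker at 0 throughout a group. The part of the lists other than B cells in the Traf1 and Vcam1 values was not tested.

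The B-cell markers moved with Traf1. The 4 animals with the most B-cell marker RNA included the 3 highest in Traf1, and the male among them, male WT replicate 2, had the highest Traf1 of the 8 males at 7.68 CPM. Without these 4 libraries, the male to female difference in LKO was -0.48 ± 0.15 for Traf1 and -0.48 ± 0.11 for Vcam1, and the female genotype difference of Traf1 went from 0.47 ± 0.25 to 0.09 ± 0.17. Nfkb2, chosen after its values were seen, stood in the female genotypes at 0.18 ± 0.11 with all libraries and 0.03 ± 0.10 without the 4, and its highest animals were female LKO replicates 2 and 3, at 75.9 and 74.8 CPM. The female genotype differences of Nfkbia (0.39 ± 0.08), Ripk3 (0.33 ± 0.07) and Tnfrsf1a (0.21 ± 0.08) were as large without the 4 libraries. Their edgeR adjusted p in that fit were 0.237, 0.258 and 0.593, and its LKO side rested on replicates 1 and 4 alone. Named after their values were seen, the members that moved by more than 0.2 on the log2 scale in the female genotype comparison were 7. Besides Traf1 and Il1b they were Cxcl5 (0.36 to 0.78), Lif (-0.013 to 0.23), Tnfaip3 (0.03 to 0.25), Mmp3 (0.64 to 0.43) and Mmp9 (-0.23 to -0.53). In females 5 members lost an unadjusted p below 0.05 without the 4 libraries (Tnf, Relb, Bcl3, Icam1 and Mmp3) and 4 gained one (Il1b, Cxcl5, Casp8 and Mmp9). No member moved by more than 0.2 in males or over both sexes. Between the sexes 2 did in WT (Tnf and Cxcl5) and 4 in LKO (Tnf, Il1b, Traf1 and Mmp9). Because the animals fall into a low set of 12 and a spread of 4, correlations with the B-cell level were taken within the 12 alone. There no member passed after adjustment over the 34 members. The highest was Vcam1, with Pearson r = 0.72 (permutation p = 0.00946, adjusted 0.153) and Spearman rho = 0.64 (permutation p = 0.0295, adjusted 0.236), and r = 0.58 without the 2 animals farthest from the median marker level. For Traf1 the values were r = 0.60 (permutation p = 0.0422, adjusted 0.287) and rho = 0.50 (permutation p = 0.0986, adjusted 0.318), and r = 0.58 without those 2 animals. Over all 16 animals Traf1 and Nfkb2 passed by Pearson's r, and 0 members by Spearman's rho, but no pooled coefficient is given across separate clusters.

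**Figure D4:**
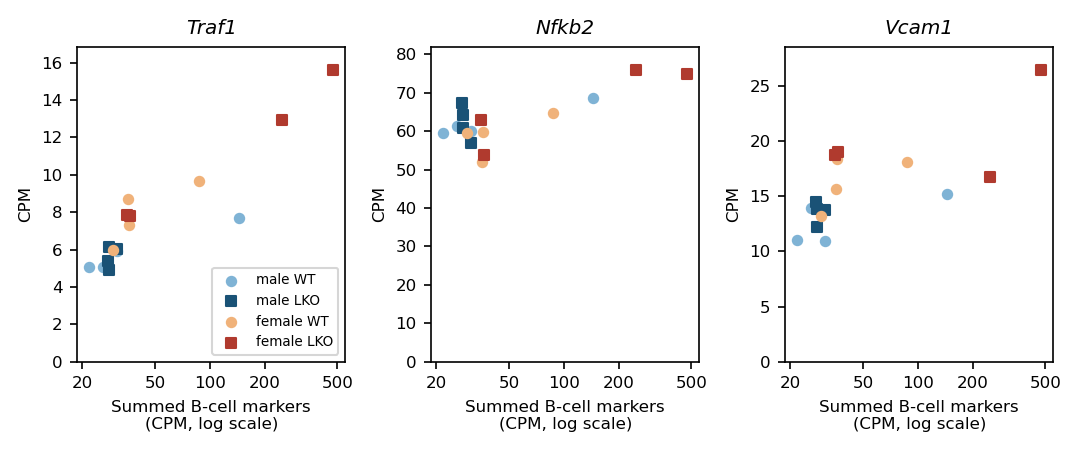
CPM of Traf1, Nfkb2 and Vcam1 in each animal against the summed CPM of 11 B-cell markers (log scale), coloured by group. The points farthest right are female LKO replicates 2 and 3, which also have the highest Traf1, at 12.9 and 15.6 CPM.

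The spread between animals also differed from member to member. The SD within groups on the log2 scale was largest for Mmp3 (0.48), Cxcl1 (0.44), Cxcl5 (0.44), Mmp9 (0.36) and Traf1 (0.33), which include the least counted members. The median SD over the 34 members was 0.15 against 0.16 over all 15598 genes tested. Single animals moved many members together. Female WT replicate 4 was the lowest of its group in 20 of the 34 members, and male WT replicate 1 in 14. Female WT replicate 4 also had its group's lowest marker sums for B cells, T cells, macrophages and dendritic cells, neutrophils, fibroblasts and lymphoid stroma. Its ileal enterocyte sum was the highest of the group. Its sums for plasma cells, endothelium, smooth muscle and adipocytes were not the lowest. The part of these markers in the member values was not tested. Without female WT replicate 4, 24 of 34 members were fitted higher in female LKO, with 7 at an unadjusted p below 0.05. Each sample label holds a number, called the animal number here, though the labels do not say what it stands for. With it as a covariate, 23 of 34 members were fitted higher in male LKO. Of these, 2 had an unadjusted p below 0.05. In males every WT animal had a lower number than every LKO animal. This fit therefore cannot tell a genotype difference from one that follows the order of the numbers, and no conclusion is drawn from it.

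Of 60 other genes of TNF and NF-kB signalling, which include adaptors, IKK and ubiquitin ligase subunits and further targets, 55 were tested in males and 56 in females, and none passed the edgeR threshold in any of the 6 comparisons. In males 31 (56.4%) were fitted higher in LKO, against 49.2% of all genes, and 24 lower, with a median log2 fold change of 0.02 and 2 higher and 3 lower at an unadjusted p below 0.05. In females 33 (58.9%) were higher, against 51.8% of all genes, and 23 lower, with a median of 0.03 and 8 higher and 1 lower at that level. Over both sexes 10 were higher and 4 lower at that level, and the smallest adjusted p belonged to Nfkbie, another IkB gene (0.170).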

How the data were processed

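RNA from the ileum of 16 mice was sequenced as single-end reads from a stranded poly(A) library kit. The authors used STAR 2.5.2 with the mm10 genome, kept reads with a single mapping position, and counted them over exons with HOMER 4.10, giving 1 row per gene. The strand setting and annotation version are not given in the sources used here. The deposited values are raw, unnormalised counts of reads per gene, and the deposited table also gives coordinates and transcript lengths in another column.

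Groups came from the sample labels. The 36 members were matched by symbol, and members and lists were chosen with earlier results of these data known. Counts were tested with edgeR 4.0.16 (R 4.3.3, limma 3.58.1) by the quasi-likelihood F-test with robust dispersion, TMM scaling and edgeR's filter on low counts. P-values were adjusted by Benjamini-Hochberg over all genes tested (threshold 0.05). Pairs of groups were fitted on their 8 libraries, and the effect over both sexes (with sex as a term) and the interaction on all 16. CPM and RPKM used TMM-scaled library sizes. The 95% intervals use the fit's own degrees of freedom. The number of counts sets how small a difference can be seen, and 3 counts was taken as the floor. Fold changes are given for the 5 tested members with the smallest p in each genotype or sex comparison and for Tnf, Nfkbia and Tnfaip3, and other members by ranges. Differences given singly for other members, among them Relb, Nfkb1, Nfkb2 and Il1b, fall outside this rule and were not planned. Each animal is a separate sample, and the edgeR p-values set a difference between groups against the spread between these animals.

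Alternatives were DESeq2 1.42.0, other scalings, no filter, a shared dispersion, the animal number or B-cell level as a covariate, a replicate block, thinning of the deepest library, and leaving out each library. Leaving out together the 4 libraries with over 50 CPM of B-cell markers was added after seeing the data. The deviations of same-numbered libraries from their group means had correlations across genes from -0.104 to 0.256. Differently numbered libraries were not compared, so these values cannot decide whether the numbers pair animals. The main fits treat the animals as unpaired. Correlations with the B-cell level, planned over all 16 libraries, are given within the 12 libraries below that level because the 4 stood apart. Scripts were tested on simulated data.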

Additional observations from a re-analysis of the deposited data

Results flagged for a closer look

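Each member tested was examined for a single animal far from the other 3 of its group, which chance flags in about 1 in 20 groups; 8 of 136 groups (5.88%) were flagged, measured as the gap to the nearest animal divided by the range of the group. In female WT replicate 4, Icam1 was low at 14.8 CPM against 21.6 to 22.2 (ratio 0.9235), and Birc3 was low at 43.7 against 57.2 to 58.9 CPM (0.8889). In female LKO replicate 3, Cxcl5 was low at 1.40 against 1.96 to 2.01 CPM (0.9041), and Nfkbia was low at 110.2 against 128 to 131 CPM (0.8666). Cflar was high in female LKO replicate 4, at 71.7 against 64.6 to 65.8 CPM (0.8372). In males, Mmp3 was high in LKO replicate 2, at 4.04 against 2.17 to 2.33 CPM (0.9159), and Tnf was low in LKO replicate 4, at 3.32 against 4.40 to 4.61 CPM (0.8368). Ripk1 was low in male WT replicate 3, at 70.1 against 72.4 to 72.7 CPM (0.8997). No genotype effect on a member differed between the sexes by the test of the interaction.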

How the results depend on the processing

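The members' median fold change between genotypes kept its sign in males, in females and over both sexes under every alternative run, and lay from 0.08 to 0.13, from 0.11 to 0.16 and from 0.09 to 0.14 without single animals. The number of members called was 0 with edgeR in males, in females, between WT sexes and for the interaction, and varied elsewhere. DESeq2 called 3 members in females, 6 over both sexes and 5 between LKO sexes, and over all genes it called 63, 154, 223, 261, 1069 and 0 where edgeR called 8, 6, 42, 38, 15 and 0 (males, females, both sexes, WT sexes, LKO sexes, interaction). Over both sexes, 1 member was called with the animal number as a covariate (Nfkbia, adjusted p = 0.0322) and 1 with the B-cell level (Ripk3, 0.0362). Between LKO sexes, 1 was called without the filter on low counts (Vcam1) and 4 with a shared dispersion. Leaving out 1 animal gave 0 to 2 calls over both sexes (Ripk3 and Tnfrsf1a without male WT replicate 3, Ripk3 without male WT replicate 4, Nfkbia without male LKO replicate 4) and 0 to 2 between LKO sexes (Bcl3 without male LKO replicate 2, Vcam1 and Traf1 without female LKO replicate 4). The cause was not tested. Among the values recomputed for the named members, these signs reversed: Tnfaip3 in males with upper-quartile scaling (-0.000753) and between LKO sexes with the B-cell level (-0.043) or without the 4 B-cell-rich libraries (-0.011); Tnf between LKO sexes with upper-quartile scaling (-0.033), the animal number (-0.016) or the deepest library thinned (-0.016); and Nfkbia between LKO sexes with the animal number (0.11). Over all 34 members, leaving out the 4 B-cell-rich libraries reversed 2 signs in males, 4 in females, 3 over both sexes, 5 between WT sexes, 7 between LKO sexes and 9 for the interaction. Without single animals Tnfaip3 ranged from -0.10 to 0.080 in males, -0.13 to 0.14 in females, -0.059 to 0.061 over both sexes, -0.034 to 0.23 between WT sexes and -0.012 to 0.17 between LKO sexes, and Tnf from -0.14 to 0.16 between LKO sexes. With a replicate block 0 members were called, and the medians were 0.10, 0.15, 0.12, -0.01, -0.0054 and -0.02. Depth limits Il6, Cxcl2 and the chemokines, at 1 to 121 counts for Cxcl1, Cxcl2 and Cxcl5.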
